A study of Mus musculus with 12 samples.

Results

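The 10 genes described here encode transcription factors of the β cell and of the endocrine pancreas as a whole: Pdx1, Mafa, Nkx6-1, Mnx1, Nkx2-2, Pax6, Isl1, Neurod1, Foxa2 and Rfx6. They were taken by symbol from a list made with earlier results of these data known, with no measured value in the rule itself, and all 10 were found among the 14089 genes of the deposited count table and passed the filter on low counts. RNA was sequenced from isolated islets of C57BL/6J mice, with no age given in the labels. Islets were held for 24 hours in vehicle, in ML351 at 10 µM, in a mixture of IL-1β (5 ng/ml), TNF-α (10 ng/ml) and IFN-γ (100 ng/ml), or in the mixture with ML351, called the combination here. ML351 inhibits 12/15-lipoxygenase, an enzyme that adds oxygen to unsaturated fatty acids, and the study asked what its inhibition does to β cells under inflammatory stress. Each group had 3 libraries, and the labels do not tell whether these are separate animals or cultures, so that the spread behind each p-value may be technical.

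Mature β cells keep their identity through a small set of transcription factors that bind near each other at the insulin genes and at genes for glucose sensing and secretion. Mafa, Pdx1, Nkx6-1 and Mnx1 are, among adult mouse islet cells, found mainly in β cells, although Pdx1 is also present in δ cells. Nkx2-2, Isl1, Pax6, Neurod1, Foxa2 and Rfx6 act in several or all islet cell types, so that α, δ and PP cells contribute to their levels in whole islets.

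Library totals ran from 20208286 to 27193026 counts. As checks of the cytokine label, Nos2 rose by 8.29 (log2, SE 0.13, adjusted p = 2.3e-17 by edgeR) and Cxcl10 by 8.11 (SE 0.22, 1.2e-10). The second principal component ran from cytokine replicate 1 at 42.3 to ML351 replicate 1 at -36.8. Next to these ends lay cytokine replicate 4 at 20.1 and combination replicate 1 at -28.7. RNA of acinar cells, the exocrine cells that surround islets, was unequal between libraries: 18 acinar markers summed to 239 to 659 CPM (counts per 1000000, scaled by TMM) with vehicle, 202 to 339 CPM with ML351 and 911 to 1320 CPM with the combination. With cytokines they summed to 39.9, 568 and 813 CPM in replicates 1, 3 and 4. The labelled tissue was matched by its markers, with 15 β-cell markers summing to between 258000 and 383000 CPM in the 12 libraries.

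Promoters are shown for 4 of the genes that moved together, Pdx1 and Isl1 with large falls under cytokines, Pax6 with an intermediate fall and a κB match, and Foxa2 with one of the smallest falls. They come from RefSeq on GRCm38.p6, in which 9 of the 10 genes, all but Mafa, were found with 12 start sites between them. Pax6 and Foxa2 have further start sites that are not shown. The other Pax6 window lies wholly within exons and held 0 κB matches. The sequences are the 250 bases before a start site, less any base that GENCODE M21 places in an exon of the gene, written 5′ to 3′ on the gene's strand, with matches to the NF-κB (κB) motif in capitals.
Pdx1, chr5:147269847-147269958, plus strand: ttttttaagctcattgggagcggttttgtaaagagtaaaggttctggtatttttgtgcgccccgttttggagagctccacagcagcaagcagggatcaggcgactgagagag
Isl1, chr13:116309690-116309938, minus strand: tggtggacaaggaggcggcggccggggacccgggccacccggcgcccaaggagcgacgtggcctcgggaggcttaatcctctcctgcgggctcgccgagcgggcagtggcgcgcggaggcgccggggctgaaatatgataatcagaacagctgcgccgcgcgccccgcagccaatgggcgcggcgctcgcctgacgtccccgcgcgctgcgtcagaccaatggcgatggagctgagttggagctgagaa
Pax6, chr2:105668646-105668895, plus strand: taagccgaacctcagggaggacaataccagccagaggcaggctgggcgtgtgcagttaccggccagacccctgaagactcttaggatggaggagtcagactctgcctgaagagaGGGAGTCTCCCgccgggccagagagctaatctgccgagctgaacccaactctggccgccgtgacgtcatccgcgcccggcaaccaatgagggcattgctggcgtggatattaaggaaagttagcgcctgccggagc
Foxa2, chr2:148046970-148047219, minus strand: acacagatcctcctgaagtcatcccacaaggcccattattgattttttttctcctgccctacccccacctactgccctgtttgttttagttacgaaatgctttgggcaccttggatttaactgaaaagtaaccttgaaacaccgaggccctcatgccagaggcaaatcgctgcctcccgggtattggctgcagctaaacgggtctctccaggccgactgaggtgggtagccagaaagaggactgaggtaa

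Letters of the binding motifs of cytokine-activated factors were searched on both strands of the whole windows of 250 bases. The κB motif was found in 2 of 12 windows, against 7.25% of 32807 mouse promoter windows of the same length. The Pax6 window held 2 overlapping κB matches, beginning 136 and 135 bases before the start site, and the Pdx1 window held 1 at 46 bases, within an exon and therefore not printed. STAT sites of the form TTCNNNGAA were in 0 of 12 windows (7.02% of all), and interferon response cores of the form GAAANNGAA were also in 0 of 12 (7.12% of all). CCAAT was in 5 of 12 windows (33.8% of all), GGGCGG in 5 (32.7%), TATAAA in 1 (12.4%), the E-box CATCTG in 1 (14.5%), and the forkhead motif TGTTTAC and the homeodomain motif TAATTA in 0 (3.16% and 4.85%). These are matches of letters only, and say nothing of whether a factor was bound.

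All 10 genes fell with cytokines, and for each of them the highest cytokine library lay below the lowest vehicle library. Mafa fell the most, to 4.04% of its vehicle level, and Nkx6-1 the least, to 48.9%. By edgeR 37.2% of all genes were called lower in this comparison, and the groups stood apart in that direction for 39.4% of genes. The median log2 fold change of the 10 was -1.85, against -0.024 over all 14089 genes. In whole islets, fewer cells of a type and less RNA per cell cannot be told apart.

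**Figure D1:**
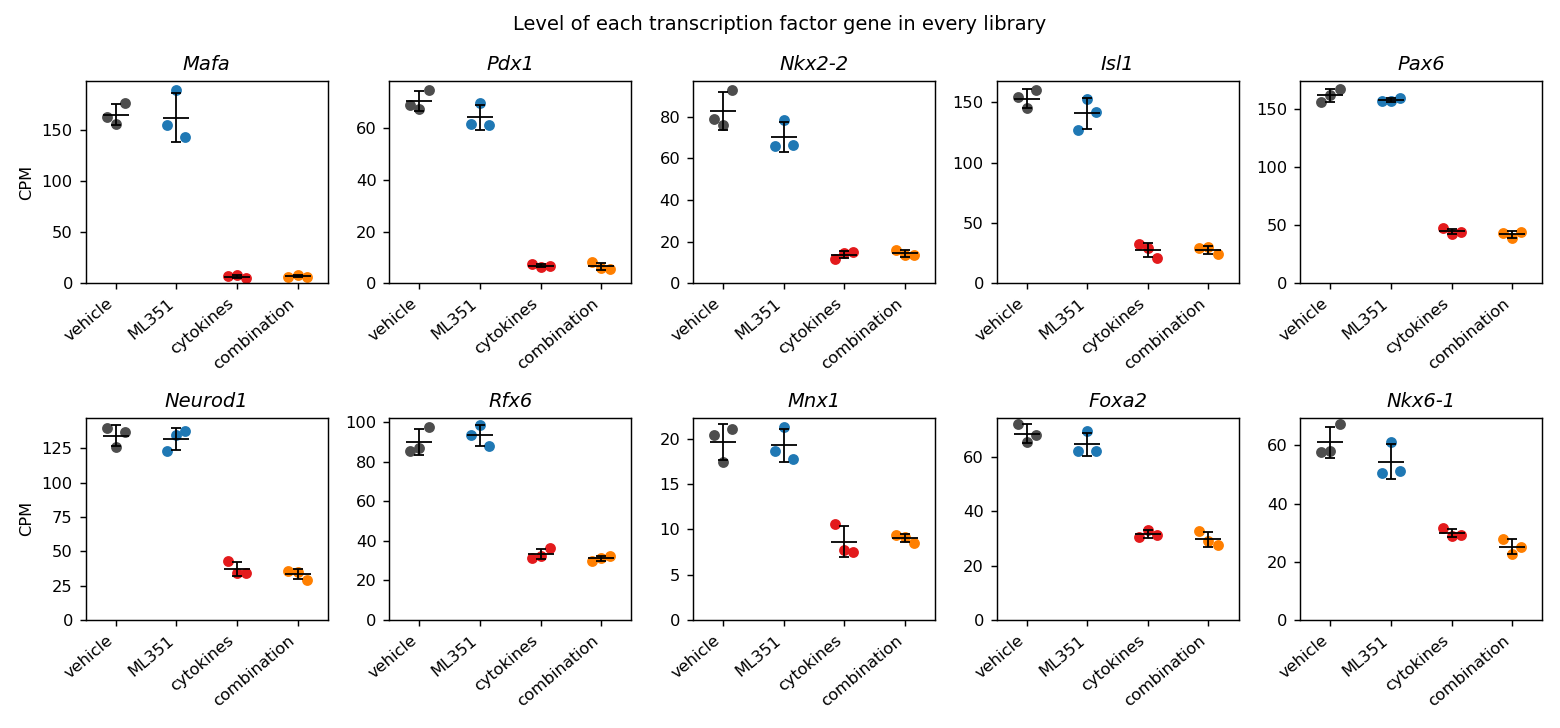
Level of each of the 10 genes in CPM (vertical axis, from 0) in the 12 libraries, by group (horizontal axis). Points are libraries, horizontal bars are group means and error bars are SD (n = 3). For every gene the 3 cytokine and 3 combination libraries sit below the 6 libraries without cytokines, from 4.04% of vehicle for Mafa to 48.9% for Nkx6-1.

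Among the β-cell factors Mafa and Pdx1 fell far more than Nkx6-1 and Mnx1. Mafa encodes a basic leucine zipper factor that switches on insulin genes in mature β cells, and it has a single exon at chromosome 15, 75745490 to 75748228 (minus strand; GENCODE M21, GRCm38, as for all gene positions here). It was at 163, 156 and 177 CPM in vehicle replicates 1, 2 and 4 and at 6.69, 7.65 and 5.64 CPM in cytokine replicates 1, 3 and 4. The cytokine libraries were low alike, and their raw counts of Mafa, 112 to 166, were still well above 0. The log2 fold change was -4.63 (SE 0.13, edgeR adjusted p = 4.2e-13), which places the level at 3.31% to 4.92% of vehicle (95% interval). Counted from the largest fall, Mafa was at rank 84 of the 14089 genes, the 0.596 percentile.

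Pdx1 (chromosome 5, 147269959 to 147275848, plus strand) encodes a homeodomain factor needed to form the pancreas and, later, to maintain β cells and insulin transcription. Vehicle replicates 1, 2 and 4 held 69.1, 67.5 and 74.9 CPM and cytokine replicates 1, 3 and 4 held 7.58, 6.43 and 6.6 CPM. Levels within each group were close, and the cytokine group stood at 9.78% of vehicle (interval 8.3% to 11.5%). The log2 fold change was -3.35 (SE 0.11, edgeR adjusted p = 4.8e-14).

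Nkx6-1 (chromosome 5, 101658139 to 101664996, minus strand), a homeodomain repressor that keeps β cells from taking on α-cell features, was at 57.8, 58.2 and 67.3 CPM with vehicle and at 31.5, 28.9 and 29.1 CPM with cytokines. This was the smallest fall of the 10, with a log2 fold change of -1.03 (SE 0.091, edgeR adjusted p = 1.7e-08) and a level of 42.8% to 55.9% of vehicle. Mnx1 (chromosome 5, 29473034 to 29478470, minus strand), a homeodomain factor of β cells and motor neurons, had the lowest vehicle level in CPM, at 20.4, 17.4 and 21.1. It was at 10.6, 7.75 and 7.56 CPM with cytokines, where replicate 1 was higher than the other libraries. Its log2 fold change was -1.18 (SE 0.13, adjusted p = 3.4e-07), and without that replicate it was -1.35.

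The 6 pan-endocrine factors fell to between 16.5% and 46.1% of vehicle, with Nkx2-2 and Isl1 the lowest. Nkx2-2 (chromosome 2, 147177546 to 147194243, minus strand) encodes a homeodomain factor required for endocrine cell fates. Vehicle libraries held 78.8, 76 and 93 CPM, the high value being that of replicate 4, and cytokine libraries 11.7, 14.5 and 14.8 CPM. The fold change was -2.60 on the log2 scale (SE 0.11, adjusted p = 1e-11 by edgeR). The libraries do not record the strand, and 278 exonic bases (9.7%) of Nkx2-2 are shared with the antisense gene Nkx2-2os, whose own level was at most 0.17 CPM with vehicle and 0.302 to 0.785 CPM with cytokines.

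Isl1 (chromosome 13, 116298281 to 116309689, minus strand), a LIM homeodomain factor that works with the adaptor Ldb1, was at 154, 145 and 160 CPM with vehicle. Cytokine replicates 1, 3 and 4 held 32.3, 28.9 and 20.9 CPM, a wider spread than for most of the 10 genes. Its log2 fold change was -2.48 (SE 0.14, edgeR adjusted p = 7.1e-09), and its level was 17.9% of vehicle (14.5% to 22.2%).

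Pax6 and Neurod1 fell by nearly equal amounts. Pax6 (chromosome 2, 105668900 to 105697364, plus strand), a paired-domain factor of all islet hormone cells, was at 156, 162 and 168 CPM with vehicle and at 47.4, 42.9 and 44.1 CPM with cytokines. Its log2 fold change of -1.85 had the smallest SE of the 10 (0.064, edgeR adjusted p = 6.8e-14). Neurod1 (chromosome 2, 79452521 to 79456751, minus strand), a basic helix-loop-helix factor that pairs with E proteins at the insulin E-box, was at 140, 126 and 137 CPM with vehicle and at 42.8, 34.2 and 34.3 CPM with cytokines (-1.85, SE 0.092, adjusted p = 1.1e-11). Of its exonic bases 201 (7.4%) are also assigned to Cerkl on the same strand, and Cerkl itself was at 9.42 to 10.7 CPM with vehicle and 9.12 to 11.8 CPM with cytokines. The antisense gene Gm26755, absent from the count table, shares 154 (5.6%) of the exonic bases of Neurod1. Pax6os1, an antisense gene at the Pax6 locus that shares 0 exonic bases with it, was at 10.1 to 13.4 CPM with vehicle and 3.67 to 4.23 CPM with cytokines.

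Rfx6 and Foxa2 fell less. Rfx6 (chromosome 10, 51677756 to 51730432, plus strand), a winged-helix factor of islet development and of β-cell calcium handling, was at 85.3, 86.9 and 97.4 CPM with vehicle and at 31.1, 32.5 and 36.3 CPM with cytokines (log2 fold change -1.43, SE 0.076, edgeR adjusted p = 1.9e-11). Foxa2 (chromosome 2, 148042877 to 148046969, minus strand), a forkhead factor that opens chromatin in endoderm and acts upstream of Pdx1, was at 72.1, 65.4 and 68.1 CPM with vehicle. Its cytokine libraries lay close together at 30.4, 33.2 and 31.2 CPM, and its log2 fold change was -1.12 (SE 0.075, adjusted p = 4.9e-10). Along the ranking of all genes the 10 were spread from the 0.596 percentile (Mafa) and the 1.94 percentile (Pdx1) to the 15.7 percentile (Foxa2) and the 17.2 percentile (Nkx6-1).

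**Figure D2:**
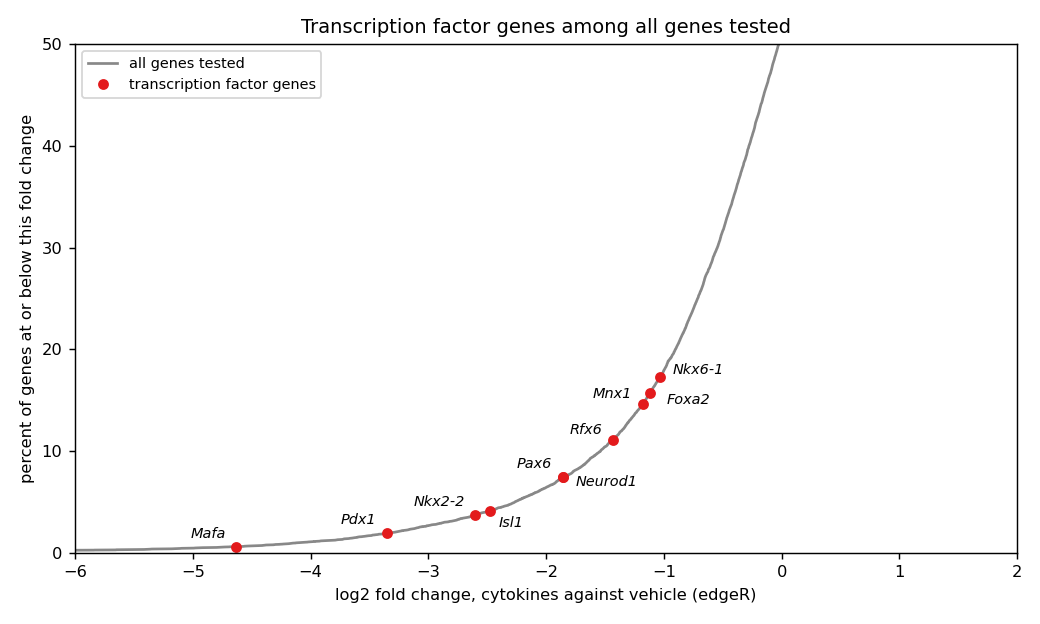
Share of the 14089 genes tested (vertical axis, percent) at or below each log2 fold change of cytokines against vehicle (horizontal axis, edgeR), drawn up to 50% of genes. Red points are the 10 transcription factor genes, which lie between the 0.596 percentile for Mafa and the 17.2 percentile for Nkx6-1.

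Whether the falls were of unequal size was tested for all 45 pairs of the 10 genes, as the change in the log2 ratio of the 2 genes with cytokines, averaged over the backgrounds without and with ML351. An exact permutation test of the libraries within each background (two-sided, 400 arrangements, smallest possible p 0.005) gave an adjusted p under 0.05 for 40 of 45 pairs, with Benjamini-Hochberg adjustment over the 45. The order fell into steps. Mafa fell more than each of the other 9 genes, by 1.28 on the log2 scale beyond Pdx1 and by 3.53 beyond Nkx6-1 (exact permutation adjusted p = 0.00577 for both). Pdx1 in turn fell more than the other 8, for instance by 0.88 beyond Nkx2-2 and 0.90 beyond Isl1.

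The 5 pairs that did not pass were those of neighbours in this order. Nkx2-2 and Isl1 differed by -0.02 (exact permutation adjusted p = 0.94), and Pax6 and Neurod1 by 0.04 (adjusted p = 0.67). Among the 3 genes that fell least, Nkx6-1 and Mnx1 differed by 0.07 (adjusted p = 0.45), Nkx6-1 and Foxa2 by 0.05 (0.482), and Mnx1 and Foxa2 by -0.02 (0.874). The SD of these 5 log2 ratios within groups was 0.115 to 0.265, so smaller differences between these genes would not have been seen. A ratio of 2 genes in the same library does not depend on how libraries are scaled, apart from the prior count of 2 used in the log2 values. With each library left out in turn 40 pairs passed in all 12 cases.

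With ML351 present all 10 genes fell with cytokines as well, Mafa and Pdx1 again the most. In the combination against ML351 alone 10 of 10 genes fell, against 36.4% of all genes called lower, and the groups did not overlap for any of the 10, against 37.6% of all genes. Their median was -1.95, against -0.022 over all genes. Mafa stood at 155, 189 and 143 CPM in ML351 replicates 1, 2 and 3 and at 6.06, 7.82 and 6.22 CPM in combination replicates 1, 2 and 4 (log2 fold change -4.59, SE 0.13, edgeR adjusted p = 5e-13). Pdx1 was at 61.6, 70 and 61.5 CPM with ML351 and at 8.11, 6.05 and 5.55 CPM with the combination (-3.29, SE 0.11, adjusted p = 7.2e-14).

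For the other genes the log2 fold changes in this comparison were -2.34 for Isl1, -2.29 for Nkx2-2, -1.98 for Neurod1, -1.91 for Pax6, -1.58 for Rfx6, -1.12 for Foxa2, -1.11 for Nkx6-1 and -1.09 for Mnx1, with edgeR adjusted p of at most 8.6e-07. This comparison shares no library with cytokines against vehicle, though its spread and scaling were estimated from all 12 libraries. Acinar markers moved beside it, 9 of 18 higher and 1 lower in the combination than with ML351, against 35.2% and 36.4% of all genes. Their part in these values was not tested.

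**Figure D3:**
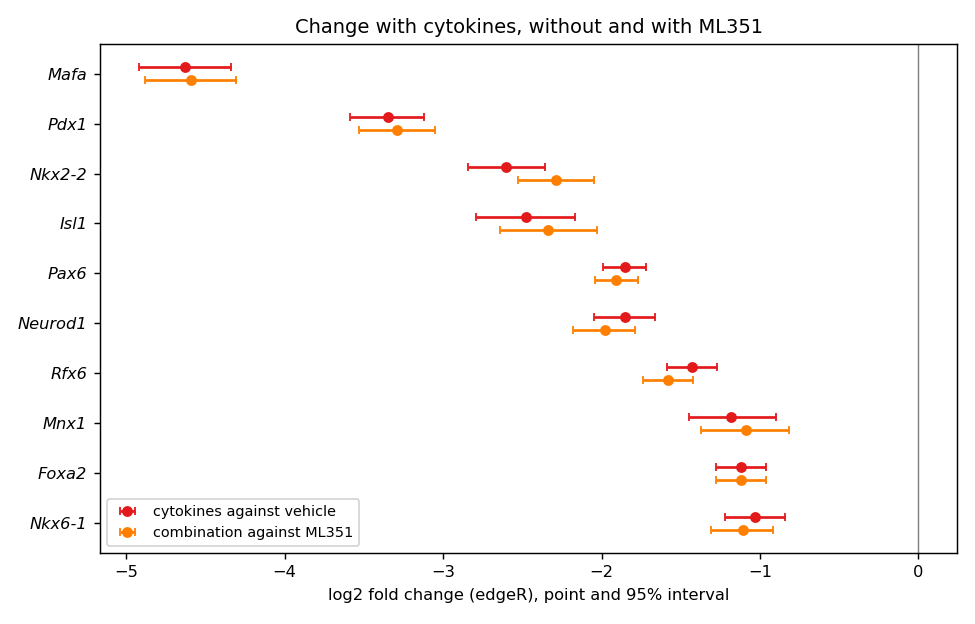
Log2 fold change with cytokines (horizontal axis, edgeR) for each of the 10 genes, without ML351 (cytokines against vehicle, red) and with it (combination against ML351, orange). Points are estimates from 3 against 3 libraries and bars are 95% intervals. Every interval lies below 0, from -4.92 at the low end for Mafa to -0.82 at the high end for Mnx1.

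None of the 10 genes passed the test with ML351 alone. By edgeR 0 of 10 were called in ML351 against vehicle, 1 was at an unadjusted p under 0.05, and DESeq2 also called 0, while of all genes 0.0355% were called by edgeR (5 genes, and 1265 before adjustment) and DESeq2 called 104 genes. Libraries of both groups overlapped for all 10, whereas the groups stood apart for 15.9% of all genes. Estimates ran from -0.23 for Nkx2-2 to 0.05 for Rfx6. Of the 10 estimates 9 were below 0, with a median of -0.06 against 0.007 over all genes. The 95% intervals of the 10 reached from -0.45 to 0.24, that is from 73.2% to 118% of the vehicle level. Changes beyond these bounds lie outside each gene's interval. Intervals of single genes were narrower, for instance 89.2% to 106% for Pax6, and changes within a gene's own interval could not be seen.

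Nkx2-2 came closest, at 65.9, 78.6 and 66.2 CPM in ML351 replicates 1, 2 and 3 against 78.8, 76 and 93 CPM with vehicle. Replicate 2 lay within the vehicle range and the other ML351 libraries below it. The log2 fold change was -0.23 (SE 0.1, interval -0.45 to -0.02, edgeR adjusted p = 0.51). Nkx6-1 stood at -0.16 (interval -0.35 to 0.02), Pdx1 at -0.13 (-0.33 to 0.07), Isl1 at -0.12 (-0.4 to 0.16) and Mafa at -0.03 (-0.25 to 0.2).

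In the combination against cytokines alone, too, 0 of 10 genes were called by edgeR and 0 by DESeq2, with 1 at an unadjusted p under 0.05, against 1.43% of all genes by edgeR (202 genes, and 2212 before adjustment) and 521 genes by DESeq2. Levels that cytokines had lowered were thus not called different when ML351 was present. The intervals of the 10 reached from -0.44 to 0.34 on the log2 scale, or 73.7% to 127% of the cytokine level. Mafa was at 0.01 (-0.32 to 0.34) and Pdx1 at -0.07 (-0.34 to 0.2). For Mafa, levels above 127% or below 80.2% of the cytokine level thus lay outside the interval.

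Nkx6-1 was the one gene of the 10 whose groups did not overlap in this comparison, which was so for 20.4% of all genes. It was at 27.7, 22.8 and 25.2 CPM in combination replicates 1, 2 and 4 and at 31.5, 28.9 and 29.1 CPM with cytokines. The combination libraries were all lower, but the difference did not pass over all genes (log2 fold change -0.24, SE 0.094, interval -0.44 to -0.05, edgeR adjusted p = 0.21). Neurod1 was at -0.15 (-0.35 to 0.04), and Nkx2-2, at 16.2, 13.4 and 13.5 CPM with the combination, was at 0.08 (-0.18 to 0.33).

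**Figure D4:**
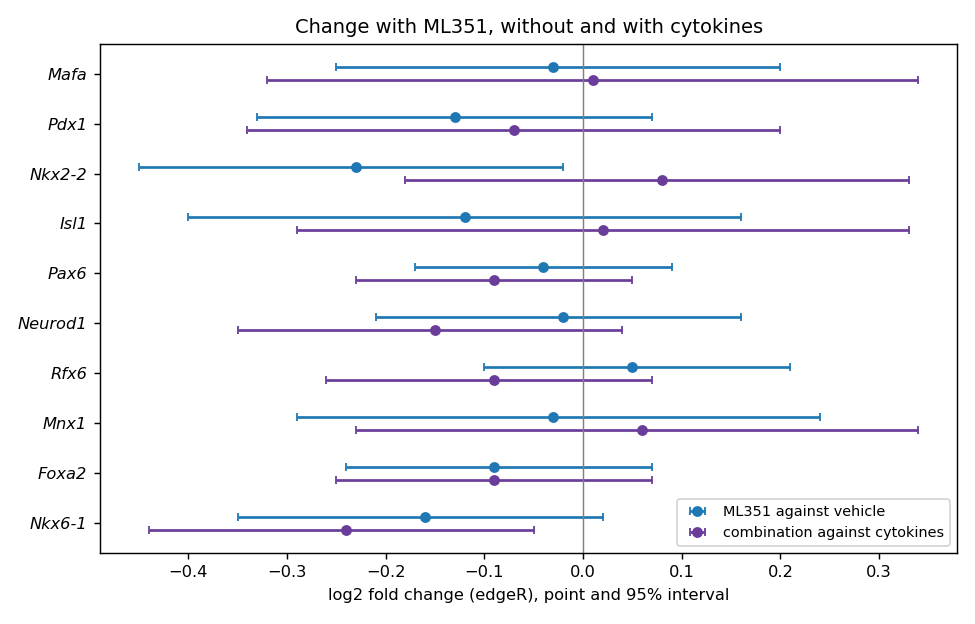
Log2 fold change with ML351 (horizontal axis, edgeR) for each of the 10 genes, without cytokines (ML351 against vehicle, blue) and with them (combination against cytokines, purple). Points are estimates from 3 against 3 libraries and bars are 95% intervals. All points lie between -0.24 and 0.08, and every interval includes 0 except that of Nkx2-2 without cytokines and that of Nkx6-1 with them.

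The interaction asks whether ML351 changed the size of the cytokine response. By edgeR 0 of 10 genes were called and 0 were at an unadjusted p under 0.05, DESeq2 called 0 of 10, and of all genes 0.0071% were called by edgeR (1 gene, and 1160 before adjustment) and 44 genes by DESeq2. Estimates ran from -0.15 for Rfx6 to 0.31 for Nkx2-2 (interval -0.03 to 0.65, adjusted p = 0.63), and the intervals of the 10 from -0.4 to 0.65. For Mafa the estimate was 0.04 (-0.36 to 0.44) and for Pdx1 0.06 (-0.27 to 0.4).

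Divided by the length of each gene's exons, the levels of the 10 genes were ordered differently in the 2 conditions. With vehicle the highest was Mafa, at 60.4 ± 3.85 CPM per kb (SD, n = 3), followed by Neurod1 (49.2 ± 2.57), Isl1 (38.6 ± 1.84), Pdx1 (32.7 ± 1.79), Foxa2 (28.9 ± 1.4), Nkx2-2 (28.7 ± 3.17), Rfx6 (22.4 ± 1.63), Nkx6-1 (19.5 ± 1.71), Pax6 (13.9 ± 0.526) and Mnx1 (8.73 ± 0.885). The libraries of Foxa2 and Nkx2-2 overlapped, as did those of Rfx6 and Nkx6-1, and no other neighbours did. With cytokines Mafa was last, at 2.43 ± 0.367 CPM per kb, behind Pdx1 at 3.18 ± 0.288.

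The top of the order with cytokines was taken by Neurod1 (13.6 ± 1.8 CPM per kb) and Foxa2 (13.3 ± 0.61), whose libraries overlapped, followed by Nkx6-1 (9.51 ± 0.452) and Rfx6 (8.31 ± 0.673). Nkx6-1 thus stood at rank 8 with vehicle and rank 3 with cytokines, though it too had fallen. By the length of its longest transcript it stood at rank 9 with vehicle and rank 6 with cytokines. Ranks depend on the exon length, since with the longest transcript in its place Isl1 was at 60.8 and Pax6 at 36.6 CPM per kb with vehicle, and Isl1 then stood first, just above Mafa. Mafa remained last with cytokines under either length.

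In the groups without cytokines, replicates that were high for 1 gene tended to be high for others. Vehicle replicate 4 was the highest of its group for 8 of the 10 genes and the lowest for 0, and so was ML351 replicate 2. With cytokines this was less marked. Cytokine replicate 1 was highest for 6 and lowest for 3, and combination replicate 1 highest for 6 and lowest for 2. These counts were not set against all genes. Without cytokine replicate 1, the highest library on the second component, 10 of 10 genes were still lower with cytokines, from -4.62 for Mafa to -1.06 for Nkx6-1. Without ML351 replicate 1, 0 of 10 were called for ML351 against vehicle and 10 of 10 were lower in the combination than with ML351.

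Other transcription factors of islets, a list of 35 of which 30 were tested, mostly fell as well: 20 were lower with cytokines and 3 higher, with a median log2 fold change of -1.18 (over all genes 37.2% were lower and 35.3% higher, with a median of -0.024). The 4 falls with the smallest p were those of the α-cell homeobox gene Irx2 (-4.17), of Mlxipl (-2.35), which encodes the glucose-responsive factor ChREBP, of the nuclear receptor gene Esrrg (-2.65) and of Hnf4a (-1.48). Rises included those of Glis3 (0.36, edgeR adjusted p = 0.00015) and Insm1 (0.37, adjusted p = 0.00087), which both encode zinc finger factors. The same numbers, 20 lower and 3 higher, were found in the combination against ML351.

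In this list ML351 gave 0 calls against vehicle and 2 in the combination against cytokines. Hhex, a homeobox gene of δ cells, was at 1.78 ± 0.618 CPM with cytokines and 3.7 ± 0.7 CPM with the combination (log2 fold change 1.07, SE 0.22, edgeR adjusted p = 0.029), after a fall from 11.9 ± 1.19 CPM with vehicle (-2.76). Nr4a1, an immediate early nuclear receptor, stood at 4.33 ± 1.08 and 13 ± 1.88 CPM (1.58, SE 0.31, adjusted p = 0.04). Of 21 alternatives, 5 ended the call of Hhex (adjusted p 0.0015 to 0.13), among them leaving out cytokine replicate 1 or 4 or combination replicate 1 or 4, and 9 ended that of Nr4a1 (1.3e-05 to 0.12), among them leaving out any one cytokine or combination library or vehicle replicate 1 or 2. The interaction was not called for either, with adjusted p 0.48 for Nr4a1.

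Cofactors and dimer partners of these factors moved both ways, 8 of 25 higher and 11 lower with cytokines, with a median of -0.22. These counts are near the shares over all genes (35.3% higher and 37.2% lower) and are no result about the list. Setd7, a histone methyltransferase that Pdx1 recruits, rose from a mean of 8.09 to 34.1 CPM (log2 fold change 2.08, SE 0.11, edgeR adjusted p = 1.7e-11). Lmo4, a LIM-only protein that competes for Ldb1, rose by 1.56, the corepressor gene Tle3 by 0.64 and Pcif1 by 0.50. Falls included those of Tle2 (-1.87), another Groucho corepressor, of the homeodomain partner Pbx3 (-1.38), of the chromatin remodeller ATPase gene Smarca2 (-1.19) and of Spop (-0.66), which encodes an adaptor for ubiquitination. In ML351 against vehicle and in the combination against cytokines 0 of 25 were called by edgeR.

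Genes known as targets of the 10 factors fell in 21 of 30 cases and rose in 4, with a median of -1.49. Over all genes 37.2% were lower and 35.3% higher, with a median of -0.024. The 30 targets include all 15 β-cell markers described below. Ucn3, a marker of mature β cells, fell from a mean of 626 to 19.3 CPM (log2 fold change -5.03, SE 0.12, edgeR adjusted p = 4e-14). Falls were also called for the prolactin receptor gene Prlr (-3.37), the granule docking gene Sytl4 (-2.23) and Ero1lb (-2.21), an oxidase for disulfide bonds of proinsulin. The rises were of the prohormone processing gene Cpe (0.82), the granin gene Chgb (0.81), Syt4 (0.47) and Scg5 (0.26). For Scg5 the call ended under upper quartile scaling (adjusted p = 0.085).

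Of the insulin genes, Ins1 was called lower with cytokines and Ins2 was not. Ins2 was at 240000, 226000 and 262000 CPM with vehicle and 214000, 230000 and 251000 CPM with cytokines, and the groups overlapped (log2 fold change -0.067, SE 0.096, edgeR adjusted p = 0.54). Ins1 was at 75200, 73400 and 82100 CPM with vehicle and 47100, 47900 and 56800 CPM with cytokines, without overlap (-0.60, SE 0.102, adjusted p = 5.4e-05). Reads of these 2 near-identical genes may be split between them in counting, so their separate values are uncertain.

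Markers of β, α, δ and PP cells fell beside the 10 genes, by unequal amounts. Of 15 β-cell markers, all of them also among the known targets, 13 were lower with cytokines (median -2.23). Lower too were 9 of 10 α-cell (median -4.01), 5 of 5 δ-cell (-2.77) and 3 of 3 PP-cell markers (-3.05), against 37.2% of all genes. Summed β-cell markers, made up mostly of Ins1 and Ins2, were at 336000 to 383000 CPM with vehicle and 291000 to 344000 CPM with cytokines. These ranges overlapped. Summed α-cell markers went from 35100 to 39300 CPM with vehicle to 782 to 1430 CPM with cytokines, and summed δ-cell markers from 1440 to 1510 CPM to 99.9 to 145 CPM. In vehicle replicate 1, Ins1 and Ins2 gave 75200 and 240000 of 355000 CPM, Gcg 36300 of 37600 CPM and Sst 1250 of 1460 CPM. The 3 sums thus follow mainly these hormone genes, and say little of the other markers in each list. The part of these cell types in the falls of the pan-endocrine factors was not tested.

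Markers of other cell types were called as well, where over all genes 37.2% were lower and 35.3% higher with cytokines. All 11 endothelial markers were lower (summed 116 to 126 CPM with vehicle and 28.2 to 38.3 CPM with cytokines), 10 of 15 macrophage markers were higher and 1 lower (225 to 232 and 348 to 366 CPM), and 9 of 14 fibroblast markers were lower and 1 higher (209 to 513 and 115 to 161 CPM). Of 8 ductal markers 4 were higher and 2 lower (830 to 1000 and 1770 to 2340 CPM). These ductal counts are not far from the shares over all genes and are no result about the list. Of 18 acinar markers 0 were higher and 1 lower. The acinar sum was lowest in cytokine replicate 1, at 39.9 CPM, and without that library 10 of 10 genes were lower. None of the tested markers was at 0 counts in all 12 libraries.

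Across the 12 libraries the 10 genes were highly correlated with each other, from r = 0.955 for Nkx6-1 and Mnx1 to 0.996 for Pdx1 and Pax6. These values describe 12 libraries that fall into clusters without and with cytokines, so the cytokine difference enters every one of them. Between 876 genes (for Nkx6-1) and 1561 genes (for Mafa) had r over 0.95 with a given member, among genes with a mean log2 CPM of at least 3. The closest patterns over the 12 libraries were Nol4 and Adgrl1 for Pdx1 (r = 0.9993 for both), Fam101a (0.9985) and Kcnma1 (0.9984) for Mafa, and Elovl2 (0.9987) and Hepacam2 (0.998) for Pax6. Rragb (0.9972) and Smim1 (0.9968) were closest to Nkx2-2, Thtpa (0.9979) and Tmem215 (0.9976) to Isl1, and Lyplal1 (0.9969) and Thtpa (0.9966) to Neurod1. For Rfx6 they were Hnrnpa2b1 (0.9983) and Ttr (0.9972), for Foxa2 Gal3st1 (0.9963) and Nol4 (0.9958), for Nkx6-1 Stard10 (0.9917) and Gga2 (0.9913), and for Mnx1 Tysnd1 and Elmod3 (0.9923 for both).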

How the data were processed

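The authors deposited a table of raw counts, with a row for each gene symbol and a column of whole numbers for each library. Per the labels' protocols, cDNA libraries were non-stranded (SMARTSeq v4). STAR, Subread, featureCounts, FastQC, DESeq2 and the build mm10 are named in the submitters' processing notes, with no version or role. The gene annotation is not given in the sources used here. Totals were 20208286 to 27193026 counts per library. For members with few counts, such as Pdx1 with cytokines (131 to 188 counts) or Mnx1 with the combination (165 to 207), counting error is not small beside the spread between libraries.

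Groups came from the treatment label of each sample, and no 2 libraries of a group matched within sampling noise (chi-square per degree of freedom at least 4.11). The main test was edgeR's quasi-likelihood F-test (edgeR 4.0.16, R 4.3.3; TMM, filterByExpr, robust glmQLFit, all 12 libraries, a mean per group), with Benjamini-Hochberg adjustment over 14089 genes and calls at 0.05. The SE is the size of the log2 fold change over the square root of F. The script was tested on simulated data. Alternatives were other scalings, filters, DESeq2 1.42.0, only the groups compared, a replicate block, non-robust dispersion and leaving out each library. Lengths and positions are from GENCODE M21. The members and lists were chosen with earlier results of these data known. From the lists of factors, cofactors and targets, the 4 genes with the smallest p in each direction for cytokines against vehicle were named, with any called in a comparison of ML351. The 2 genes with the largest Pearson r of log2 CPM (prior count 2, mean of at least 3) were named per member, and Nos2 and Cxcl10 as checks of the cytokine label. One gene that this rule names is not reported here. Ins1, Ins2, Gcg, Sst, Cerkl, Nkx2-2os and Pax6os1 were named outside this rule, after their values were seen. Gm26755, which has no counts here, was named for its overlap alone.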

Additional observations from a re-analysis of the deposited data

How the results depend on the processing

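With cytokines against vehicle and with the combination against ML351, 10 of 10 genes were lower under each of 21 alternatives (adjusted p at most 1e-05 and 1.18e-05). For the ML351 comparisons and the interaction 0 of 10 were called under each of 21, 21 and 20. The alternative without a filter on low counts equals the main run, because all 14089 genes passed the filter. In a comparison of 2 groups, leaving out a library of another group could move only the scaling and the estimate of spread. Upper quartile scaling moved the median of all genes for cytokines against vehicle from -0.024 to -0.147. In their deviations from group means, libraries with the same replicate number were not more alike than others (13 same-number pairs, r -0.377 to 0.202, 2 above 0.1, 3 of 12 libraries closest to their own number). With 3 libraries per group this cannot tell whether same-number libraries shared a preparation. The replicate block kept 10 and 0 calls while all genes called with cytokines went from 10209 to 9699. Whole-table counts that moved were 5 genes for ML351 against vehicle (0 to 104 over alternatives, 0 to 17 without single libraries), 202 for the combination against cytokines (53 with the replicate block, 521 with DESeq2, 54 to 236 without single libraries) and 1 for the interaction (0 to 44). Higher genes made up 45% of calls in the combination against cytokines, 33.3% with RLE and 71.8% with library totals alone.

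Signs turned only where nothing was called, and the cause was not tested. For ML351 against vehicle, library totals alone gave Mafa 0.035, Mnx1 0.038, Pax6 0.026 and Neurod1 0.038, the replicate block gave Mnx1 0.015, and leaving out single libraries gave -0.149 to 0.058 for Mafa, -0.106 to 0.03 for Mnx1 and -0.066 to 0.014 for Neurod1. For the combination against cytokines Mafa was -0.004 with RLE, -0.005 with DESeq2 and -0.057 with the replicate block. Without single libraries Mafa ran from -0.117 to 0.117, Pdx1 from -0.27 to 0.016, Nkx2-2 from -0.041 to 0.135, Mnx1 from -0.029 to 0.23 and Isl1 from -0.14 to 0.148. For the interaction the replicate block gave Mafa -0.034, Mnx1 -0.001 and Foxa2 0.016, and Foxa2 was 0.003 with the upper quartile and 0.004 with the CPM filter. Without single libraries Foxa2 ran from -0.091 to 0.053, Mafa from -0.086 to 0.161, Mnx1 from -0.004 to 0.262, Nkx6-1 from -0.168 to 0.015, Isl1 from -0.017 to 0.279, Pdx1 from -0.131 to 0.154 and Pax6 from -0.104 to 0.009. The leave-outs of pairs and the alternatives for named genes outside the 10 were added after seeing the data.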
